A study of Mus musculus with 12 samples.

Results

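The Pramel genes Pramel1, Pramel3, Pramel4, Pramel5, Pramel6, Pramel7 and Pramel19 were followed in mouse embryonic stem (ES) cells. They were chosen by name, as members of the PRAME family, and read from array probe sets annotated to a single gene symbol, taking the probe set with the highest mean where a gene had several. Of these 7 genes 6 were measured, out of 22180 genes on the array. Each of the 6 had exactly 1 such probe set, so that the mean decided nothing. Pramel4 was represented only by 2 probe sets that carry several symbols, and is not analysed here.

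Transcripts were measured on 12 Affymetrix arrays from 4 groups of 3 cell samples, and the values are log2 signals normalized by the authors. All cells carried tdTomato driven by MERVL, an endogenous retrovirus transcribed at the 2-cell stage of the embryo, and were grown in serum replacement medium with LIF on gelatin. In the KO+Mut group, cells with Dppa2 and Dppa4 knocked out had received plasmids for both proteins fused to GFP in a SUMO-deficient form. In the KO+WT group the same kind of knockout cells had received the wild-type GFP fusions. Cells of both add-back groups had been transfected by lipofection and collected as GFP-positive cells, steps that the labels record for no other group. The KO group held knockout cells without add-back, and the parental group held reporter cells with both genes intact. How many knockout clones there were, and which promoter drove the plasmids, was not stated in the sources used here. The replicates are called biological, with no word on cultures or days, and p-values therefore reflect only the spread among these samples.

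PRAME family proteins consist largely of leucine-rich repeats, and the family has expanded in the mouse into gene clusters. Human PRAME was found as a melanoma antigen and can serve as the substrate receptor of a Cul2 ubiquitin ligase. In mouse ES cells Pramel7 acts downstream of LIF and STAT3, which sustain self-renewal, and helps to degrade Uhrf1, the protein that guides maintenance DNA methylation. Dppa2 and Dppa4 bind DNA in early embryos and ES cells and activate Zscan4 and other genes of the 2-cell stage. SUMO is a small protein modifier that cells couple to many nuclear proteins.

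The measured genes lie on 3 chromosomes, Pramel1, Pramel5 and Pramel19 on chromosome 4, Pramel6 and Pramel7 side by side on chromosome 2, and Pramel3 on chromosome X. The promoter sequences of the 4 genes whose signal stood above the lower quartile of the arrays in some or all groups follow. They show the CpG dinucleotides that DNA methylation acts on, few in Pramel19, Pramel7 and Pramel6 and many in Pramel1. They come from RefSeq (assembly GRCm38.p6), run 5′ to 3′ on the strand of the gene from 250 bases before its start to 50 after it, and have each CpG in capitals. The Pramel19 promoter is at chr4:101940157-101940456 on the plus strand, that of Pramel7 at chr2:87492369-87492668 on the minus strand, that of Pramel6 at chr2:87506315-87506614 on the plus strand, and that of Pramel1 at chr4:143394191-143394490 on the plus strand.
Pramel19: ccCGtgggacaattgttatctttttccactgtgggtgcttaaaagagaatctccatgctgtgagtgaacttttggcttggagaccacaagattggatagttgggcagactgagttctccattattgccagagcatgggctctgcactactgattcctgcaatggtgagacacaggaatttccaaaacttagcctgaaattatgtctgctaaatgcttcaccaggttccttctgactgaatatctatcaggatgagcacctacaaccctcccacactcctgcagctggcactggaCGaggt
Pramel7: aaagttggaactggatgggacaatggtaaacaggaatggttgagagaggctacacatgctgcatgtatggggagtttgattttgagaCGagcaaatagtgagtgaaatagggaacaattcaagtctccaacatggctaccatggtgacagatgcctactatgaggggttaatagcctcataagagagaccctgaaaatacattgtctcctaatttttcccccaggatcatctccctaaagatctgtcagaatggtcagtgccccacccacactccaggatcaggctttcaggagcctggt
Pramel6: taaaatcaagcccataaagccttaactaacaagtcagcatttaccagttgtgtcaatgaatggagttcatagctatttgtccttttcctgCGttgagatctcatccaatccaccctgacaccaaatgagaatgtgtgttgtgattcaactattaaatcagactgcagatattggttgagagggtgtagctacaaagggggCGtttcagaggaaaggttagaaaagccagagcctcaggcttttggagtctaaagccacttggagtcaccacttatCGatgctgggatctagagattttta
Pramel1: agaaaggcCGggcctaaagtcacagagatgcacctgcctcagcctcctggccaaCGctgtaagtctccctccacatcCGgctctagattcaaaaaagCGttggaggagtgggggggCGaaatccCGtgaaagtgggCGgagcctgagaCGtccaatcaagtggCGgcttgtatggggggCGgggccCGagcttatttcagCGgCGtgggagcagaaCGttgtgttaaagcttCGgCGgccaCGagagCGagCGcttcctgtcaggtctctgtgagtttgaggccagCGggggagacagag

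The Pramel19 promoter held 2 CpG dinucleotides, that of Pramel7 held 1 and that of Pramel6 held 3, against a median of 7 over 32851 promoters of this length. The Pramel1 promoter held 20, more than 73.5% of those promoters. Of the members not printed, Pramel3 had 9, Pramel4 had 2 and Pramel5 had 0. Both strands of the 7 promoters were searched for 4 motifs that do not overlap each other: TTCNNNGAA, the letters bound by STAT factors, ATGCAAAT, the octamer bound by Oct4 and related factors, TATAAA, the TATA box, and a Dux-type homeobox element given here by name alone. None of the 7 windows held any of them. Of all promoters 8.30% held the STAT letters, 1.74% the octamer, 13.6% the TATA box and 0.0335% the Dux-type element. The promoters of Pramel4 and Pramel5 were 83.4% identical and shared a run of 111 bases. The other 20 pairs were 46.5% to 57.8% identical and shared runs of 7 to 11 bases.

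The knocked-out genes served as the first check of the labels. Dppa2 signal was 11.12, 11.30 and 11.17 (log2) in KO+Mut, 10.79, 11.34 and 11.11 in KO+WT, 8.13, 8.69 and 8.63 in KO and 9.35, 9.81 and 10.17 in parental cells. Dppa4 signal was 10.55, 10.67 and 10.39 in KO+Mut, 10.09, 10.58 and 10.49 in KO+WT, 7.92, 7.63 and 7.31 in KO and 8.24, 8.58 and 8.56 in parental cells. Both were lowest in KO cells and highest with add-back, without overlap between KO and any other group, and whether their probes lie within the deleted sequence is not known here, so these values check the labels only in part. The mean of 7 ES cell markers lay between 8.44 and 8.59 on every array, and that of 7 fibroblast markers between 3.10 and 3.44. Dppa5a was the lowest of the ES cell markers, at 3.82 to 4.39. Lum was the only fibroblast gene below the lower quartile throughout, and Col1a1 and Thy1 stood above the array median throughout. The mean of 6 trophectoderm markers lay between 4.52 and 5.07. The mean of 6 primitive endoderm markers was 5.59 to 5.88 in KO+Mut, 5.79 to 5.99 in KO+WT and 5.53 to 6.11 in KO, against 6.28 to 7.07 in parental cells. Among them Gata6 stood at 7.64 to 9.37, above the ES cell marker Pou5f1 at 6.60 to 6.87. By limma without a block 0 of these markers passed in any comparison. With the replicate number as a block, Sox2, Tfap2c, Dab2 and Pdgfra were lower in KO+Mut than in parental cells, where 1.54% of all genes were. Dab2 and Pdgfra were also lower in KO+WT than in parental cells, where 0.996% of all genes were. Array medians lay between 3.73 and 3.88 and lower quartiles between 2.36 and 2.47. With 3 arrays a group, the 95% interval of a difference reached 0.344 (log2) to either side for the median gene.

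Pramel19, a chromosome 4 gene with the older name Gm12794, differed most between the groups. Its signal was 10.50, 11.05 and 11.46 (log2) on KO+Mut replicates 1, 2 and 3, and 9.26, 10.84 and 11.09 on the KO+WT replicates. It was 2.42, 2.91 and 2.95 on the KO replicates and 5.29, 6.85 and 6.02 on the parental replicates. KO cells were lowest and both add-backs highest, parental cells lay between them, and the add-backs overlapped only each other. The KO values stood near the lower quartile of the arrays, where low signals cannot be told from background, so that differences from KO may be understated. Over all arrays the gene ran from percentile 25.2 to percentile 99.7 of the probe sets. In these bulk samples, fewer cells of a type and less RNA per cell cannot be told apart.

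In KO cells Pramel19 was 3.29 lower than in parental cells (difference -3.29, SE 0.46, 95% interval -4.28 to -2.30, n = 3 each, limma adjusted p = 0.00988), which is 9.77-fold. It was the only one of the 6 members past the threshold of 0.05 in this comparison, in which 0.203% of all genes were called lower and 0.0361% higher. The call rested on single arrays: without parental replicate 2 the difference was -2.89 (limma adjusted p = 0.0505) and without KO replicate 1 it was -3.12 (0.0515). With the replicate number as a block, limma's adjusted p was 0.000777. A fall of Pramel19 in KO cells was known from earlier results on these arrays, so its values describe them and are not separate evidence.

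With add-back, Pramel19 was 8.24 above KO in KO+Mut (95% interval 7.25 to 9.23, 302-fold, limma adjusted p = 9.82e-07). In KO+WT it was 7.63 above KO (95% interval 6.65 to 8.62, 199-fold, limma adjusted p = 2.53e-06). It was again the 1 member of 6 past the threshold in each comparison. Of all genes, 1.12% were called higher and 0.153% lower in KO+Mut minus KO, and 0.73% higher and 0.0992% lower in KO+WT minus KO. These comparisons share the KO arrays. Against KO or parental cells, add-back cannot be told apart from the transfection and sorting recorded for the add-back groups alone. Relative to parental cells Pramel19 was 4.95 higher in KO+Mut (95% interval 3.96 to 5.94, 31.0-fold, limma adjusted p = 0.00015) and 4.35 higher in KO+WT (95% interval 3.36 to 5.33, 20.3-fold, limma adjusted p = 0.00062). No other member passed there. Of all genes, 0.654% were called higher and 0.338% lower in KO+Mut minus parental, and 0.32% higher and 0.23% lower in KO+WT minus parental. Dppa2 and Dppa4 themselves also stood above the parental range on every add-back array.

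**Figure D1:**
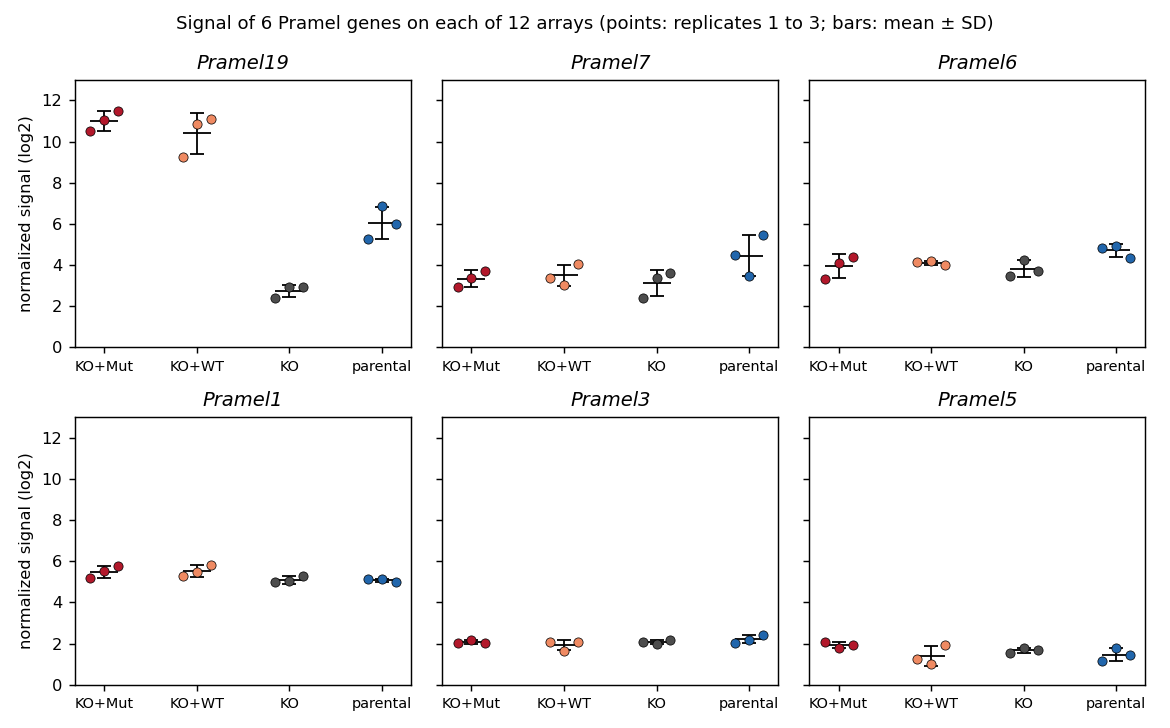
Log2 signal of the 6 measured Pramel genes on each of the 12 arrays, in the groups KO+Mut, KO+WT, KO and parental, with the group mean and SD as bars. Pramel19 runs from 2.42 in KO cells to 11.46 in KO+Mut cells, while Pramel3 and Pramel5 do not pass 2.43 on any array.

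Pramel7, the family member tied to LIF signalling and to Uhrf1, had signals of 2.93, 3.37 and 3.74 in KO+Mut, 3.39, 3.06 and 4.07 in KO+WT, 2.42, 3.37 and 3.60 in KO and 4.48, 3.45 and 5.44 in parental cells. Parental replicates 1 and 3 stood above every other array, and parental replicate 2 lay within the range of the other groups. The mean was 3.13 ± 0.63 in KO cells and 4.46 ± 0.99 in parental cells (SD, n = 3 each). The difference of -1.33 (SE 0.44, 95% interval -2.29 to -0.36) did not pass the threshold (limma adjusted p = 0.478). Against KO cells it differed by 0.22 in KO+Mut (95% interval -0.75 to 1.18) and by 0.38 in KO+WT (95% interval -0.59 to 1.34). Against parental cells it differed by -1.11 in KO+Mut and -0.95 in KO+WT (limma adjusted p = 0.355 and 0.474).

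Pramel6, the neighbour of Pramel7 and likewise known from ES cells, showed a like order. Its signal was 3.33, 4.11 and 4.42 in KO+Mut, 4.15, 4.19 and 4.00 in KO+WT, 3.47, 4.27 and 3.73 in KO and 4.84, 4.93 and 4.36 in parental cells. All parental arrays stood above all KO and all KO+WT arrays, and KO+Mut replicate 3 lay within the parental range. KO cells averaged 3.82 ± 0.40 and parental cells 4.71 ± 0.31 (SD, n = 3 each), a difference of -0.89 (SE 0.26, 95% interval -1.46 to -0.32) that did not pass (limma adjusted p = 0.360). The differences from parental cells were -0.76 in KO+Mut and -0.60 in KO+WT (limma adjusted p = 0.263 and 0.436). Against KO cells they were 0.13 in KO+Mut (95% interval -0.44 to 0.70) and 0.29 in KO+WT (95% interval -0.28 to 0.86). By group mean, the primitive endoderm markers shared the direction of Pramel6 and Pramel7 between KO and parental cells. Over parental replicates 1, 2 and 3 the marker mean was 6.28, 6.87 and 7.07. In KO 6 of 6 markers were lower than in parental cells (median -0.74), with 0 past the threshold by limma. At an unadjusted p under 0.05 there were 5 of them, against 6.94% of all genes. With the replicate block 1 of them was called lower, the receptor gene Pdgfra (difference -1.24, adjusted p = 0.000910), where 0.437% of all genes were. Their part in these differences was not tested.

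Pramel1, a member known from testis, measured 5.18, 5.52 and 5.76 in KO+Mut, 5.28, 5.46 and 5.84 in KO+WT, 4.97, 5.02 and 5.30 in KO and 5.13, 5.12 and 5.004 in parental cells. Every add-back array exceeded every parental array, while KO and parental arrays overlapped. The add-backs were above KO by 0.39 in KO+Mut (95% interval 0.02 to 0.77, limma adjusted p = 0.374) and by 0.43 in KO+WT (95% interval 0.06 to 0.81, limma adjusted p = 0.337). Above parental cells the differences were 0.40 in KO+Mut and 0.45 in KO+WT (limma adjusted p = 0.384 and 0.370). KO and parental cells differed by 0.01 (95% interval -0.36 to 0.38).

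Pramel3 and Pramel5 gave low signals. Pramel3, the X-linked member, measured 2.01, 2.18 and 2.05 in KO+Mut, 2.09, 1.66 and 2.08 in KO+WT, 2.10, 1.96 and 2.19 in KO and 2.05, 2.19 and 2.43 in parental cells, at or below the array's lower quartile on 11 of 12 arrays. Pramel5, a chromosome 4 member reported from ES cells, measured 2.07, 1.80 and 1.94 in KO+Mut, 1.25, 0.99 and 1.96 in KO+WT, 1.56, 1.80 and 1.67 in KO and 1.16, 1.77 and 1.47 in parental cells, below it on 12 of 12. Their groups overlapped in every comparison but 1, that of Pramel5 in KO+Mut with parental cells (difference 0.47, limma adjusted p = 0.442). The share of all genes whose groups do not overlap was not counted, here or for Pramel1 and Pramel6. Low signals of this kind bound what the array can show and do not show that the genes are silent.

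The comparison of the add-backs asked whether the SUMO-deficient form acts differently from the wild-type form, and it is the one in which both groups had been transfected and sorted. Pramel19 averaged 11.00 ± 0.48 in KO+Mut and 10.40 ± 0.99 in KO+WT (SD, n = 3 each), a difference of 0.61 with a 95% interval of -0.38 to 1.59 (limma adjusted p = 1). The groups overlapped, and KO+WT replicate 1 was the lowest of the 6 arrays. Between arrays of the same number, which paired here, KO+Mut was higher by 1.23, 0.21 and 0.37, in 3 of 3 pairs, and with the replicate block the limma adjusted p was 0.888. The largest difference among the other members relative to its interval was that of Pramel5, 0.54 (95% interval 0.06 to 1.01, limma adjusted p = 1), at a low signal. Pramel7 and Pramel6 each differed by -0.16 (95% intervals -1.12 to 0.80 and -0.73 to 0.41), Pramel1 by -0.04 (-0.41 to 0.33) and Pramel3 by 0.14 (-0.18 to 0.45). Limma called 0 members and 0% of all genes at the threshold in this comparison. At an unadjusted p under 0.05 there were 1 member, Pramel5, and 675 genes in all, and the intervals limit a difference without showing that the forms act alike.

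**Figure D2:**
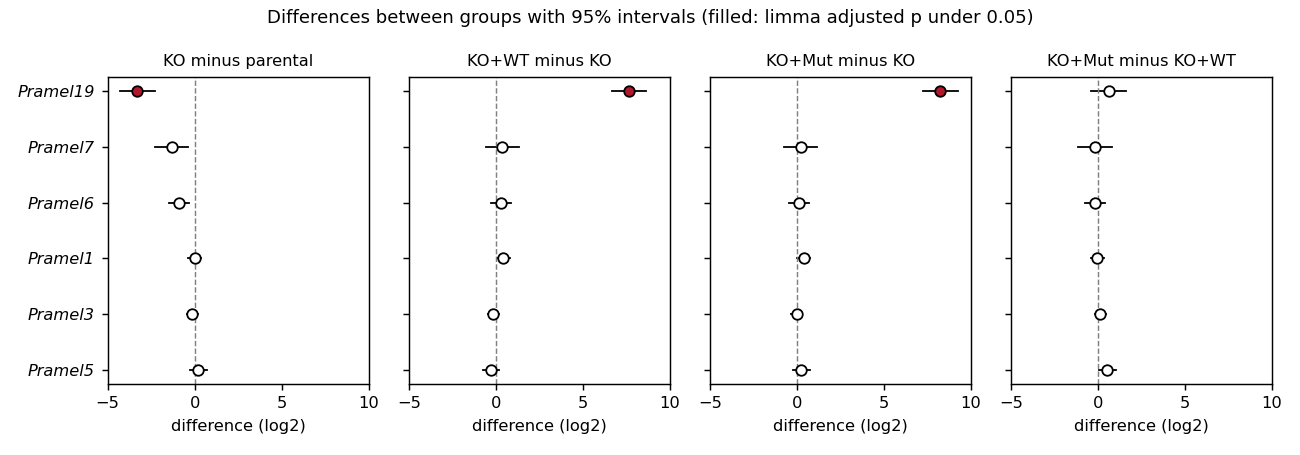
Difference in log2 signal of each measured Pramel gene in 4 comparisons, with 95% limma intervals, the first-named group minus the second, filled where the adjusted p was under 0.05. Pramel19 gives the only filled points, at -3.29 in KO minus parental, 7.63 in KO+WT minus KO and 8.24 in KO+Mut minus KO.

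The members other than Pramel19 gave 30 pairs of gene and comparison, of which none passed the threshold with the lowest limma adjusted p at 0.263, and at 0.104 over all settings tried. The median difference of the 6 members was -0.52 in KO minus parental, 0.24 in KO+Mut minus KO and 0.33 in KO+WT minus KO, against medians within 0.01 of 0 over all genes.

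The array also measured 28 other genes of the PRAME family, with the symbol Prame or with Pramel, Pramef or Oog followed by a number. The Oog genes are oocyte genes of the same family. The gene with the bare symbol Pramel, next to Pramel3, was not counted among these 28 and did not pass in any comparison. Near-identical family genes may share probes, so their values may not be independent. In KO+Mut minus KO 3 of the 28 rose (Pramel17, Pramel24 and Pramel31) and 0 fell, against 1.12% and 0.153% of all genes, with 23 positive and a median of 0.19. In KO+WT minus KO 2 rose (Pramel24 and Pramel31) and 0 fell, against 0.73% and 0.0992% of all genes, with 19 positive and a median of 0.13. In KO minus parental 0 rose and 0 fell by limma, with 13 positive and a median of -0.02. At an unadjusted p under 0.05 there were 2 of the 28, against 6.94% of all genes. KO+Mut minus KO+WT had 0 past the threshold by limma and a median of 0.12. At an unadjusted p under 0.05 there were 6 of the 28, against 3.04% of all genes.

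Pramel31, which lies near Pramel5 on chromosome 4, had the highest fitted differences from KO among these. Its signal was 5.98, 6.74 and 7.38 in KO+Mut, 4.37, 6.30 and 6.89 in KO+WT, 1.22, 0.76 and 1.26 in KO and 1.74, 2.37 and 2.09 in parental cells. Every add-back array stood above every KO and parental array, and KO arrays stood below parental arrays. The KO signals lay below the lower quartile of the arrays and the parental signals near or below it, so that its differences from them may be understated. It was 5.62 above KO in KO+Mut (SE 0.51, limma adjusted p = 7.24e-05) and 4.77 above KO in KO+WT (SE 0.51, limma adjusted p = 0.000448), while KO minus parental was -0.98 (limma adjusted p = 0.796).

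Pramel24 measured 5.69, 6.10 and 7.21 in KO+Mut, 4.20, 5.38 and 6.95 in KO+WT, 2.98, 3.00 and 2.73 in KO and 3.74, 3.60 and 3.84 in parental cells. Again no add-back array overlapped the KO or parental arrays. It was 3.43 above KO in KO+Mut (limma adjusted p = 0.00501) and 2.60 above KO in KO+WT (limma adjusted p = 0.0386). The KO+WT call was lost when any 1 KO replicate was left out (adjusted p 0.102, 0.111 and 0.145 without replicates 1, 2 and 3) and without KO+WT replicate 2 (0.106) or 3 (0.0595). It was also lost with the 6 arrays alone (0.132), with all probe sets tested (0.0853) and with quantile normalization repeated (0.0556).

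Pramel17, which has 1 measured gene between it and Pramel19 on chromosome 4, measured 4.57, 5.98 and 6.46 in KO+Mut, 2.92, 5.65 and 5.83 in KO+WT, 1.77, 2.56 and 1.70 in KO and 1.65, 2.23 and 1.62 in parental cells. It was 3.66 above KO in KO+Mut (limma adjusted p = 0.0137). In KO+WT it was 2.79 above KO and did not pass (limma adjusted p = 0.0776). The limma adjusted p was 0.0244 with a replicate block, though replicate numbers were not taken to pair arrays in this comparison. It was 0.0498 with array weights and 0.00117 without KO+WT replicate 1, the lowest of its group. The KO and parental signals of Pramel17 too lay mostly below the lower quartile. Without KO replicate 1 or 3, or KO+Mut replicate 2 or 3, the KO+Mut call was lost (adjusted p 0.0579, 0.0635, 0.0794 and 0.0582).

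Against parental cells, 5 of the 28 were higher in KO+Mut (Pramel11, Pramel16, Pramel17, Pramel24 and Pramel31) and 1 was higher in KO+WT (Pramel31), with 0 lower in both. Of all genes 0.654% and 0.32% were called higher. With a replicate block 8 were higher in KO+Mut and 2 in KO+WT, against 1.59% and 1.07% of all genes, and in KO+WT Pramel17 was 2.97 higher with an adjusted p of 0.0215, against 0.0750 without the block. Pramel31 was 4.64 higher in KO+Mut (limma adjusted p = 0.000571) and 3.79 higher in KO+WT (limma adjusted p = 0.00386). Pramel16 was 2.12 higher in KO+Mut (limma adjusted p = 0.0258) and Pramel11 was 1.10 higher (limma adjusted p = 0.0163). Without any 1 of the parental replicates, or without KO+Mut replicate 2 or 3, that count was 1 or 2, and without KO+Mut replicate 1 it was 6. In KO+WT it was 3 without KO+WT replicate 1. In parental cells Pramel16 and Pramel11 lay below the lower quartile of the arrays, and on KO+Mut replicate 3, the highest for both, they stood at 4.47 and 3.67.

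**Figure D3:**
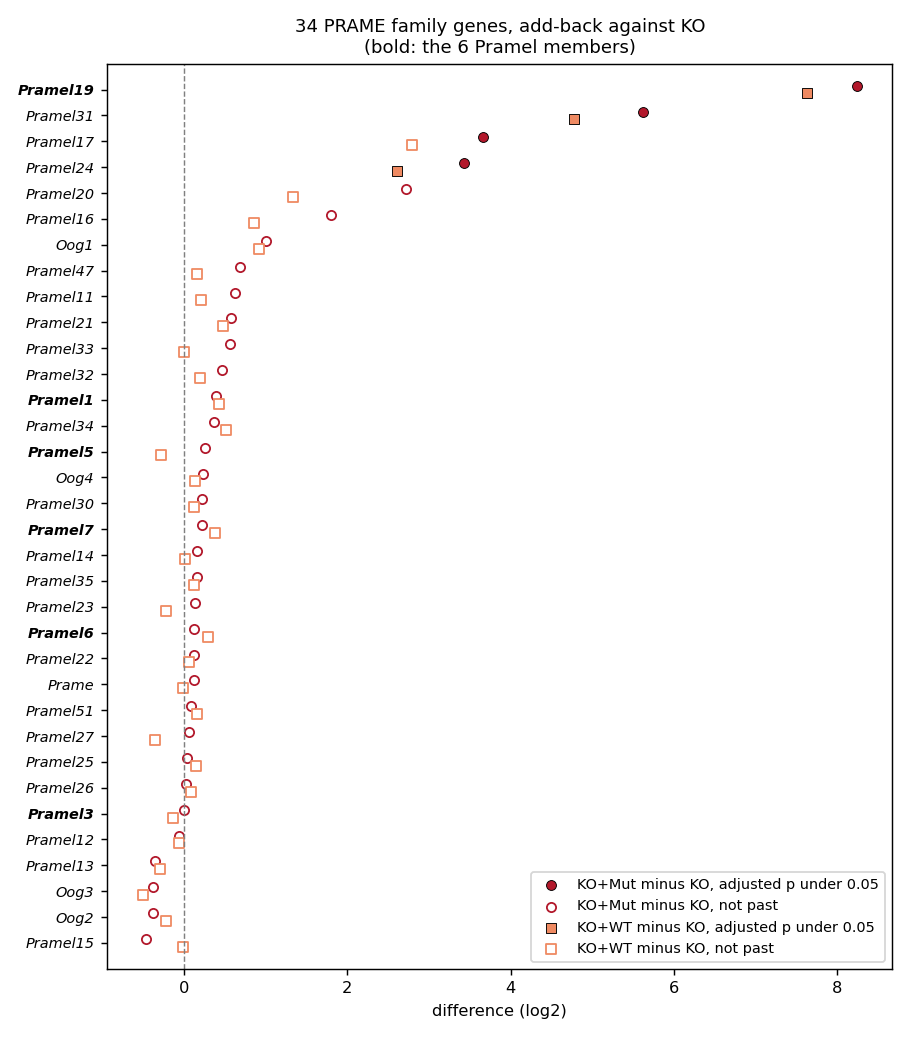
Differences in log2 signal of 34 measured PRAME family genes, with the gene of bare symbol Pramel left out, 1 row a gene. KO+Mut minus KO is shown as circles and KO+WT minus KO as squares, filled where the limma adjusted p was under 0.05. Pramel19 and Pramel31 stand highest with add-back, Pramel17 and Pramel24 follow, and most of the family lies near 0.

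A further 42 probe sets carry several symbols with at least 1 of the PRAME family among them, and were left out of the counts above because their signal cannot be given to 1 gene. In a fit of all 41345 probe sets, 29 of them were higher in KO+Mut minus KO and 19 in KO+WT minus KO, where 0.805% and 0.493% of all probe sets were called higher. In KO minus parental 0 were called, against 0.00967% of all probe sets higher and 0.0653% lower.

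Pramel19, Pramel17, Pramel24 and Pramel31 also shared which arrays were low and high. In KO+Mut and in KO+WT, replicate 1 was the lowest and replicate 3 the highest for 4 of 4 genes. The mean of 24 measured 2-cell-stage genes had the same arrays at its extremes, with 6.82, 7.24 and 7.76 in KO+Mut and 5.75, 6.82 and 7.39 in KO+WT, against 2.86, 2.92 and 2.77 in KO and 3.60, 4.18 and 4.06 in parental cells. Replicate numbers carry no order. The 4 genes were taken for being called higher with add-back, and the share of all genes with this array order was not counted. Deviations of same-numbered KO+Mut and KO+WT arrays also correlated over all genes (0.40, 0.21 and 0.47). Of the 24 measured 2-cell-stage genes 19 rose in KO+Mut minus KO and 16 in KO+WT minus KO (medians 4.78 and 3.69), against 1.12% and 0.73% of all genes. In KO minus parental 0 rose and 3 fell, against 0.203% of all genes lower, and 6 fell with the replicate block, against 0.437%. They include Zscan4e, a zinc finger gene of 2-cell-like cells, at 9.04 and 8.49 above KO, and Usp17le, a deubiquitinase gene, at 7.40 and 7.02, beside 8.24 and 7.63 for Pramel19. This list was drawn up with the earlier results known.

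By the root mean square difference of centred log2 values over the 12 arrays, the genes nearest to Pramel19 were Zscan4b (0.358), Gm11543 (0.419) and Usp17le (0.427), against 3.41 for Pramel19 about its own mean. Zscan4b was 7.81 and 6.95 above KO in KO+Mut and KO+WT and -2.82 in KO minus parental (limma adjusted p = 0.0741, and 0.0297 with the replicate block). Gm11543 was 9.01 and 8.13 above KO and -4.07 in KO minus parental (limma adjusted p = 0.00301). The genes nearest to Pramel7 were Cyp2c55 (0.414), Habp2 (0.444) and 1700018B24Rik (0.450), against 0.747 for Pramel7 about its own mean. Set against the members' own spread, the likeness is close for Pramel19 and loose for Pramel7. The other 4 members had group means within 1 of each other, and no like genes were named for them.

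**Figure D4:**
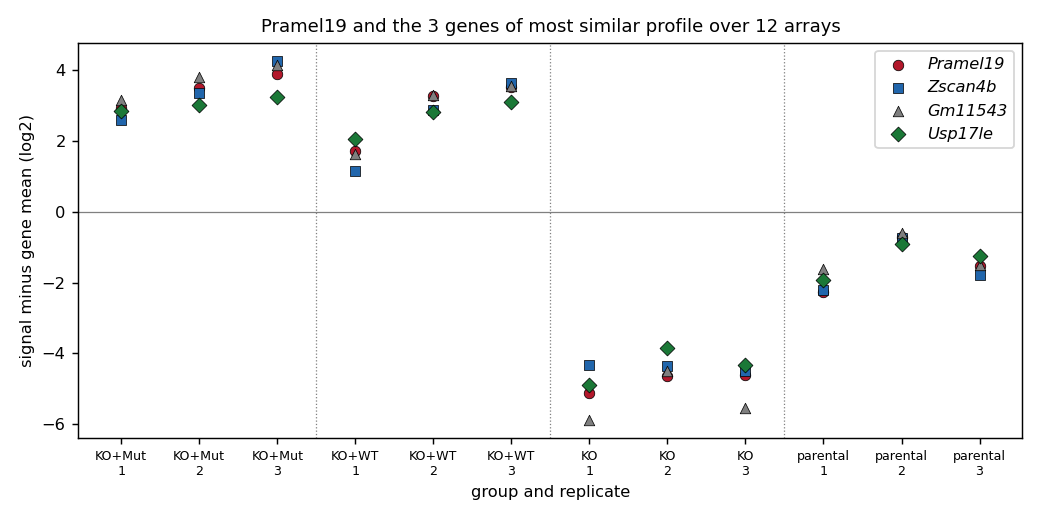
Log2 signal, centred on each gene's own mean, over the 12 arrays for Pramel19 and the 3 genes of nearest profile, Zscan4b, Gm11543 and Usp17le. All 4 genes are high on the add-back arrays, low on the KO arrays and between them on the parental arrays.

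The partners through which Pramel7 is known to act were read from lists of Cul2 ligase and DNA methylation genes (11 of 14 symbols measured, 2 of the others being older symbols of measured genes) and of LIF and STAT3 signalling genes (14 of 14 measured). In all 6 comparisons 0 genes of either list passed by limma without a block. At an unadjusted p under 0.05 the first list had 1 gene in KO minus parental and the second had 3, against 6.94% of all genes. In KO+Mut minus KO and KO+WT minus KO those counts were 0 and 0 for the first list and 6 and 3 for the second, against 12.5% and 12% of all genes. With the replicate block, in the comparisons whose arrays paired, the first list had 2 genes lower in KO+Mut minus parental and 2 in KO+WT minus parental (Dnmt3a and Dnmt3b in each), and 1 in KO minus parental (Dnmt3b). The second had 3 lower in KO+Mut minus parental (Il6st, Pim1 and Pim3) and 0 in the others. Of all genes 1.54%, 0.996% and 0.437% were called lower with the block in KO+Mut minus parental, KO+WT minus parental and KO minus parental. The medians in KO minus parental were -0.03 and -0.02. In KO+Mut minus KO they were -0.13 and -0.22, with 3 of 11 and 3 of 14 genes positive. In KO+WT minus KO they were -0.09 and -0.06, with 2 of 11 and 2 of 14 positive. Where numbers were not taken to pair arrays, the block called Jak1 of the second list higher in KO+Mut minus KO and KO+WT minus KO. Of all genes 2.16% and 1.59% were called higher there. The block also called Il6st lower in KO+Mut minus KO, against 1.06% of all genes.

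The genes called only with the block, and Uhrf1, the known target of Pramel7, were chosen for naming after their values were seen. Uhrf1 measured 9.23, 9.32 and 9.36 in KO and 9.35, 9.50 and 9.49 in parental cells, a difference of -0.14 (95% interval -0.39 to 0.11, limma adjusted p = 0.943). Dnmt3b, a de novo DNA methyltransferase gene, measured 6.67, 7.39 and 7.70 in KO and 7.53, 8.22 and 8.61 in parental cells. Its replicates spread alike in both groups, with overlap between them, and its difference of -0.86 had a limma adjusted p of 0.679 without the replicate block and 0.00439 with it. With the block it was also lower than parental in KO+Mut (-0.99, 0.000973) and KO+WT (-0.93, 0.00192).

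The measured genes next to the members on the chromosome, 3 on each side, made 30 genes outside the list. In KO+Mut minus KO 3 of them rose (Pramel31, Pramel17 and Lepr) and in KO+WT minus KO 2 (Pramel31 and Lepr), against 1.12% and 0.73% of all genes. Lepr, the leptin receptor gene and the third measured gene before Pramel19, was 0.58 above KO in KO+Mut and 0.62 above KO in KO+WT (limma adjusted p = 0.0472 and 0.0418). Those Lepr calls were lost in most alternatives tried, with adjusted p up to 0.199 in KO+Mut and 0.191 in KO+WT, among them every fit without KO replicate 1 or 3 or without any 1 add-back replicate of the comparison. On the other side of Pramel19, Pde4b and Sgip1 differed by 0.09 and 0.33 in KO+Mut minus KO, neither past the threshold. The genes on both sides of Pramel6 and Pramel7 include olfactory receptor genes, and none near them passed in any comparison. Near Pramel3 on chromosome X, Nxf7, an RNA export factor gene, was 1.19 lower in KO than in parental cells (difference -1.19, limma adjusted p = 0.00664), and was also lower than parental in KO+Mut (-1.42) and KO+WT (-1.63). AV320801 beside it was also lower than parental in KO+Mut and KO+WT (-0.88 and -1.05, limma adjusted p = 0.0416 and 0.0245). In each of these 2 comparisons 2 of the 30 neighbours were lower, against 0.338% and 0.23% of all genes. Higher than parental were 2 in KO+Mut (Pramel31 and Pramel17) and 1 in KO+WT (Pramel31), against 0.654% and 0.32% of all genes.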

How the data were processed

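Transcript levels of 12 ES cell samples were measured on Affymetrix arrays from biotin-labelled cDNA. The authors deposited log2 signals, 1 per probe set and array, already normalized. The Transcriptome Analysis Console made them, per the submitters' processing notes. The console's version, how background was corrected, how probes were summarized and the genome build were not stated in the sources used here. The log2 scale was inferred from the range of the values, and low signals may be compressed. Of 41345 probe sets, 23521 carried 1 gene symbol, 1814 several and 16010 none in the platform annotation. The probe set with the highest mean stood for a gene, which left 22180 genes, of which 21994 were found in the RefSeq table of GRCm38.p6 with 0 differing symbols.

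R 4.3.3 with limma 3.58.1 fitted 1 mean per group to all 12 arrays (lmFit, eBayes). For each of 6 comparisons, Benjamini-Hochberg adjustment ran over all genes, with two-sided tests and a threshold of 0.05. Alternatives were a replicate block, repeated quantile normalization, median centring, a filter at percentile 25, trend and robust variances, the 6 arrays alone, the mean of probe sets, all probe sets, array weights and leaving out each array. Deviations of same-numbered arrays correlated above 0.1 in every pair in KO minus parental (0.36, 0.15 and 0.42), KO+Mut minus KO+WT (0.40, 0.21 and 0.47), KO+WT minus parental (0.33, 0.15 and 0.31) and KO+Mut minus parental (0.33, 0.13 and 0.36), where numbers were taken to pair arrays. Replicate 2 fell below that in KO+WT minus KO (0.06) and KO+Mut minus KO (0.08), where they were not. No 2 arrays held identical values.

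Named were the members, Dppa2 and Dppa4, up to 4 genes of each list past the threshold, the 3 nearest genes on each side, the other family genes past the threshold, and, for members whose group means spanned at least 1, the 3 genes of most like profile. The members and lists were chosen with earlier results of these data known. On simulated data for KO minus parental (22180 genes), 8, 42, 50 and 50 of 50 genes lowered by 0.5, 1, 2 and 4 were recovered, with 7 false calls. The simulated noise was normal and independent between arrays, without the correlation of same-numbered arrays given above. Promoters were aligned with Biopython 1.88, and Python 3.11.15 with pandas 2.3.3 and matplotlib 3.10.9 made the tables and figures.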

Additional observations from a re-analysis of the deposited data

Results flagged for a closer look

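The 42 probe sets shared by several genes with a PRAME family symbol hold 35 distinct profiles, since some repeat the same values. In a fit of all 41345 probe sets, 24 distinct profiles were higher in KO+Mut than in KO cells by limma. The median difference over the 35 distinct profiles was 3.62 and the highest 6.93 (log2). In KO+WT minus KO 18 were higher, with a median of 2.78 and a highest of 6.22. These signals stood out because they lie in data the comparisons left aside. Which gene of a shared probe set gives the signal cannot be told apart, so none is named.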

How the results depend on the processing

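Over 16 settings Pramel19 kept its direction and its call in KO+Mut minus KO (8.01 to 8.49), KO+WT minus KO (7.29 to 8.20), KO+Mut minus parental (4.57 to 5.35) and KO+WT minus parental (3.96 to 4.91). In KO minus parental it kept its direction (-3.67 to -2.89), and the count of members past the threshold was 0 to 1 with single arrays left out. The 5 other members kept their side of the threshold in 438 of 438 alternatives.

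The count of other PRAME family genes higher moved more. In KO+Mut minus KO, 3 became 6 with the replicate block, 5 with trend and robust variances and 6 with array weights, and was 2 to 4 with single arrays left out. In KO+WT minus KO, 2 became 1 with repeated quantile normalization, all probe sets or the 6 arrays alone, 3 with the replicate block or array weights, and was 1 to 3 with single arrays left out. In both of these comparisons replicate numbers were not taken to pair arrays. In KO+Mut minus parental, 5 became 8 with the replicate block and 3 with the filter at percentile 25 or all probe sets, and was 1 to 6 with single arrays left out. In KO+WT minus parental, 1 became 2 with the replicate block or array weights, and was 1 to 3 with single arrays left out. The cause was not tested.

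Counts over all genes moved by over 1.5 times. With single arrays left out, KO minus parental had 18 to 29 lower and 0 to 3 higher, KO+Mut minus KO 109 to 192 higher and 10 to 19 lower, and KO+WT minus KO 80 to 154 higher and 6 to 12 lower. KO+Mut minus parental had 70 to 118 higher and 34 to 59 lower, and KO+WT minus parental 34 to 102 higher and 16 to 31 lower. Under the other settings these were, in the same order, 26 to 113 and 1 to 40, 194 to 480 and 12 to 236, 71 to 353 and 4 to 141, 122 to 353 and 58 to 342, and 32 to 237 and 20 to 221. KO+Mut minus KO+WT had 0 throughout. Signals near the lower quartile limit Pramel3, Pramel5 and the KO level of Pramel19.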
